A study of Mus musculus with 6 samples.

Results

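The noncoding RNA genes described here are the well-expressed members of their class in cancer-associated fibroblasts (CAFs) of mouse mammary tumors. They were chosen by 2 criteria: the gene table had to class the gene as ncRNA, and its mean over all 6 libraries had to reach 5 CPM (counts-per-million, a gene's count scaled to the library's total). The choice left 79 of 2904 noncoding RNA genes, in a table of 27179 genes. Because the level itself chose the genes, levels are given as a description. The CAFs came from 3 raGFP-Wnt1 tumors. These arose in female mice that carried MMTV-Wnt1, a transgene in which the mouse mammary tumor virus promoter drives Wnt1 in the mammary epithelium, together with a knock-in of GFP fused to histone H2B at Pdgfra, which makes the nuclei of Pdgfra-expressing fibroblasts green. All groups shared the transgene, the reporter and the mixed FVB/NJ and C57BL/6 background, and the ages of the mice were not given in the sources used here. GFP+ cells of each tumor were sorted by the surface protein CD34 into a CD34- and a CD34+ fraction, which gave 3 libraries per group with both groups drawn from the same tumors. The question was how the fractions differ. Fold changes are CD34- over CD34+ throughout.

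Long noncoding RNAs (lncRNAs) are transcripts that do not encode a protein and act as RNA, as hosts from which smaller RNAs are cut, or only through the act of being transcribed. Some build nuclear structures, as Neat1 does for paraspeckles, and others silence genes in cis, as Xist does on the inactive X chromosome. Many stand in imprinted domains, where a gene is read from the maternal or the paternal chromosome only.

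The sort was visible in Cd34, the gene of the protein sorted on, at 42.2 to 105 CPM in CD34- and 555 to 1672 CPM in CD34+. The libraries held between 16238059 counts (CD34+ of tumor 1) and 86609267 counts (CD34+ of tumor 2), so that each of the 79 genes rested on at least 6 counts in each library. The CD34- library of tumor 3 stood apart with 14314 genes detected, against 16253 to 19220 in the other libraries. Of the 79 genes, 28 had their highest CPM and 17 their lowest CPM in this library. The fibroblast markers were abundant in every library: the 9 markers (Pdgfra, Pdgfrb, Col1a1, Col1a2, Col3a1, Dcn, Lum, Pdpn and Thy1) summed to 70378 to 88969 CPM in the CD34- libraries and to 77251 to 96736 CPM in the CD34+ libraries. Markers of other cell types were far lower. The 7 epithelial markers summed to 60.6 to 158 CPM in CD34- and 21.4 to 143 CPM in CD34+, and the 7 immune markers to 12.4 to 16.7 CPM and 7.45 to 19.7 CPM. With Wnt1 added, all 8 epithelial genes had a log2 fold change above 0 without a term for the tumor (median 0.77). None was called, with or without that term (adjusted p below 0.05, limma-voom). Ptprc, Cd68 and Itgam had no count in at least 1 library. The summed CPM of the 6 pericyte markers was 199 to 237 CPM in CD34- and 85.6 to 187 CPM in CD34+, though the markers went both ways: with the tumor as a block (adjusted p below 0.05, limma-voom), 3 were called higher in CD34- and 2 lower. The 6 endothelial markers summed to 10.7 to 28.8 CPM in CD34- and 54.5 to 128 CPM in CD34+, with Cdh5, Emcn and Cldn5 at 0 in some libraries. Of the 5 endothelial markers tested, 1 was called lower with the block, and 3 had a log2 fold change above 0 without it. The part of these markers in the differences below was not tested. In sorted bulk samples, fewer cells of a type and less RNA per cell cannot be told apart.

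The class name long noncoding RNA held for most of the 79 genes, with exceptions. RefSeq gave a position to 71 of them on GRCm38.p6 and called 69 of these lncRNA and 2 microRNA (Mir682 and Mir568). GENCODE vM21 matched 69, of which 23 were lincRNA, 23 processed transcripts and 10 antisense RNAs. It classed Gm14403 as protein-coding, and Gm10736, Ube2d-ps, 2810025M15Rik, 1700086L19Rik and Abhd11os as kinds of pseudogene. The rows of Mir682 (96 bases), Mir568 (83 bases) and Bc1 (154 bases) were shorter than 200 bases, the usual lower limit of a long RNA. Exon bases were shared with another annotated gene in 28 of the 69, on the opposite strand in 22 and on the same strand in 6. The library kit does not keep strand, so reads of a gene and of its opposite-strand partner cannot be told apart in those stretches. The share of exon bases was 100% in Mir682 and Mir568, 81.4% in Gm20186 and 48.5% in 1700113A16Rik, and it was 10% or more in 18 genes. A near-identical stretch (at least 95% identity over at least 25% of the transcript) was found in a gene elsewhere for 12 genes.

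Some of the most abundant rows matched housekeeping mRNAs. Gm10736 is a processed pseudogene in GENCODE, and its 78 bases there (chr13:111593534-111593611, minus strand, GRCm38) were 100% identical to a stretch found in 3 of the 7 GENCODE transcripts of Rpl41, which encodes a small ribosomal protein. The counted row is 415 bases long, and its bases outside these 78 were not compared. The 78-base sequence is shown because it is an open reading frame. The capitals mark its first and last codon.
Gm10736: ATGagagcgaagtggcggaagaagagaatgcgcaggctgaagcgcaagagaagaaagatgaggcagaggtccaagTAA
The hairpin of Mir682 (chr13:75645046-75645141, plus strand, GRCm38.p6) matched Rpl37a, another ribosomal protein gene, over its 96 bases at 99.0% identity and lies in the processed pseudogene Gm4149. It is shown with the mature microRNA in capitals, from base 74 to base 94.
Mir682: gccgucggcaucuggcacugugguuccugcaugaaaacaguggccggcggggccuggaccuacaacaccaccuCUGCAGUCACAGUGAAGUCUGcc
Gm17494 matched Ppia, the gene of cyclophilin A, at 98.9% over 740 bases, and C230062I16Rik matched Mif, the gene of a secreted cytokine, at 99.4% over 508 bases. How the authors' counting treated reads with several matches was not stated, so the values of these 4 rows are uncertain.

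Of these rows, Mir682 stood nearest to its coding partner in the ratios, and the other pairs differed more. For Mir682 the log2 ratios of CD34- over CD34+ were 0.01, -0.20 and -0.39 in tumors 1, 2 and 3, beside 0.03, -0.29 and -0.53 for Rpl37a. For C230062I16Rik they were 1.42, -0.54 and -0.04, beside 0.78, -0.78 and 0.15 for Mif. In these pairs, and in Gm17494 and Ppia below, the row and its partner put the tumors in the same order. Gm10736 and Rpl41 put them in different orders. For Gm10736 the ratios were -0.47, -0.83 and -0.59, beside -0.23, -0.50 and -0.81 for Rpl41, with all 6 values below 0. For Gm17494 they were -0.31, -0.34 and 0.07, beside -0.66, -0.86 and -0.31 for Ppia. With the tumor as a block, Ppia was called (log2 fold change -0.61 ± 0.14, SE, adjusted p = 0.0292, limma-voom). Gm17494 was not (-0.19 ± 0.13, adjusted p = 0.449). Whether these rows counted reads of their partners was not tested.

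**Figure D1:**
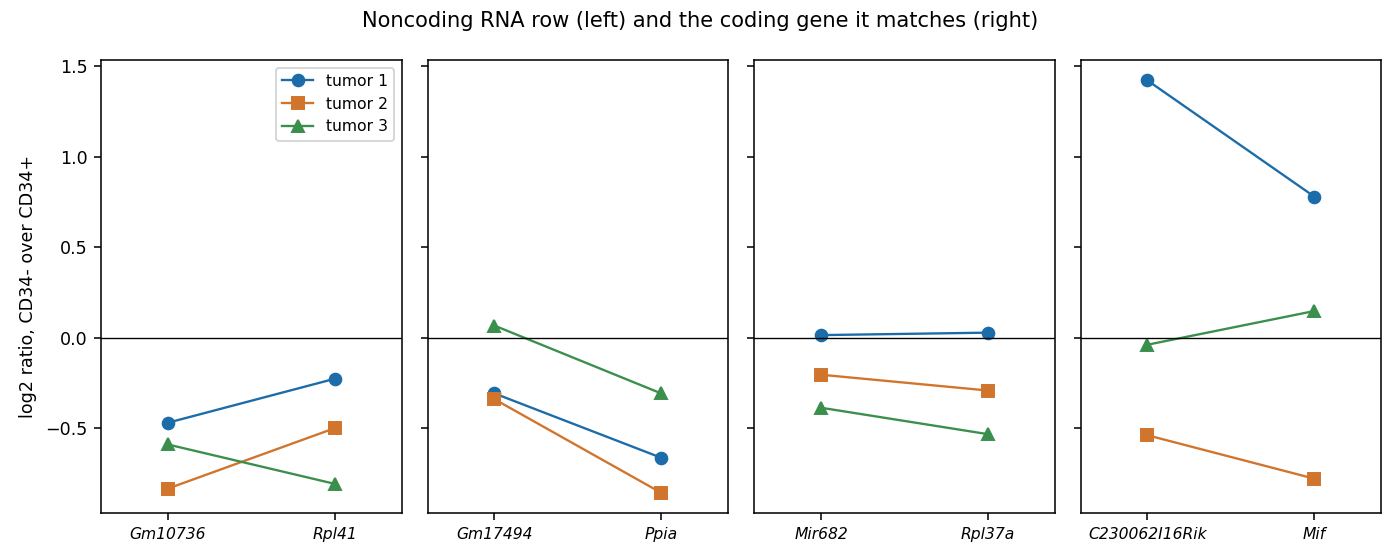
Log2 ratio of CD34- over CD34+ (y axis) in each of the 3 tumors for 4 noncoding RNA rows (left of each panel) and the protein-coding gene whose transcript they match (right); lines join the values of a tumor. The Mir682 and Rpl37a values lie close together in each tumor (0.01 and 0.03 in tumor 1), and all 6 values of Gm10736 and Rpl41 lie below 0.

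The 79 genes took a small share of each library. Their counts made up 0.345% ± 0.021 (SD, n = 3) of the CD34- libraries and 0.384% ± 0.038 (SD, n = 3) of the CD34+ libraries, and the ranges (0.332% to 0.369% and 0.346% to 0.422%) overlapped. The 5 genes with the highest mean CPM (Xist, Gm17494, Norad, Meg3 and Malat1) held 47.2% of the summed CPM of the 79, and the 10 highest held 69.0%. The median gene had a mean of 9.30 CPM. Per kilobase of the length in the table, the order was another one. Mir682 led with 1451 CPM per kb, a value that rests on 96 bases, followed by Gm10736 (291), Gm17494 (198), 2410006H16Rik (88.1), Gm20186 (86.9), Bc1 (82.3), the snoRNA host Snhg1 (81.8), Rian (68.3), Mir568 (68.1) and Gas5 (66.5 CPM per kb). Among these, only 2410006H16Rik, Snhg1, Rian and Gas5 shared no exon bases with another gene and had no near-identical copy in GENCODE. The last 3 genes above the level limit were 4933439C10Rik (5.08 CPM), Gm19316 (5.04 CPM) and 2810433D01Rik (5.02 CPM), and the first 3 below it were 2810002D19Rik (4.84 CPM), Ftx (4.80 CPM) and A830082K12Rik (4.80 CPM). In CD34- alone the mean was under 5 CPM in 4 of the 79 genes, and in CD34+ alone in 11.

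None of the 79 noncoding RNA genes passed the test without a term for the tumor. All were among the 14855 genes tested with limma-voom, and none had a Benjamini-Hochberg adjusted p below 0.05 in this design, where 18 genes (0.121%) of all tested did. The lowest adjusted p among them was 0.0735, for Rian. At an unadjusted p below 0.05, 17 of the 79 stood out (10 higher and 7 lower in CD34-), or 21.5%, beside 14.3% of all genes tested and 17.8% of genes at or above the same level limit. DESeq2 called 6 in the same design, where it called 674 of all 14855 genes tested. In edgeR's quasi-likelihood test the count was 0, with 9 of all genes called.

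With the tumor as a block, 8 of the 79 genes passed (adjusted p below 0.05, limma-voom). The labels put both fractions of a pair in the same tumor, so this design compares them within tumors. The 8 genes are 10.1% of the 79, beside 8.57% of all genes tested and 11.9% of genes at or above the same level limit, so their share was near the background. The count depended on single tumors, on the tool and on the filter. It was 7 without tumor 1, 3 without tumor 2 and 18 without tumor 3. Beside these, 1134 of 14893, 851 of 14634 and 2019 of 15514 genes tested were called. The count was 2 with edgeR, 11 with DESeq2 and 3 without the low-count filter. Beside these stood 575 of 14855, 1730 of 14855 and 802 of 20392 genes tested. Rian was called each time a tumor was left out; without tumor 2 it was the only one of the 8 to be called, and without tumor 3 all of the 8 but Norad were. Higher in CD34- were 4 (4.32% of all genes tested were called in this direction), and lower were 4 (4.25%). The median log2 fold change of the 79 was 0.11 without the block and 0.07 with it, beside -0.03 and -0.01 over all genes tested, and it was -0.02 with edgeR and -0.03 with DESeq2. The 79 genes had a median absolute log2 fold change of 0.44, beside 0.37 over all genes and 0.28 over genes at or above the limit. The sign of the log2 ratio was the same in all 3 tumors in 33 of the 79 (19 higher and 14 lower in CD34-). This is 41.8%, beside 46.3% of all genes tested and 50.2% of genes at or above the same level limit.

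**Figure D2:**
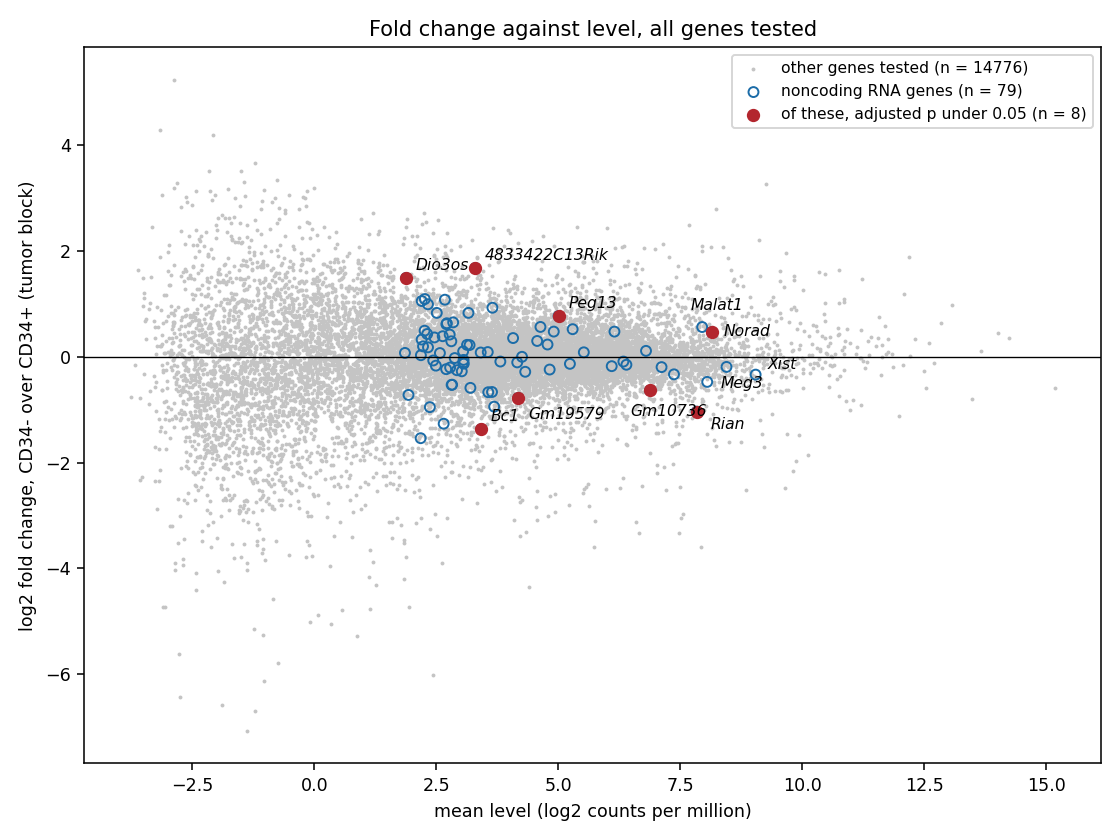
Log2 fold change of CD34- over CD34+ with the tumor block (y axis) against mean level in log2 CPM (x axis) for all 14855 genes tested; blue circles are the 79 noncoding RNA genes and red points the 8 of them with an adjusted p below 0.05. The 79 genes spread on both sides of 0, with 4 red points above and 4 below.

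Rian was the gene with the smallest adjusted p in both designs. It is a maternally expressed noncoding RNA of the Dlk1-Dio3 imprinted domain and carries small nucleolar RNAs and microRNAs in its long transcript (chr12:109603940-109661716, plus strand, GRCm38). It measured 153, 184 and 141 CPM in the CD34- libraries of tumors 1, 2 and 3, and 336, 326 and 328 CPM in the CD34+ libraries. The CD34+ mean of 330.0 CPM had an SD of 4.97 CPM (n = 3), and every CD34+ value exceeded every CD34- value (mean 159 ± 22.6, SD, n = 3). The log2 fold change was -1.04 ± 0.17 (SE; adjusted p = 0.0735, limma-voom) without the block and -1.04 ± 0.13 (adjusted p = 0.00215) with it. Rian was called in 10 of the 23 fits run, and its log2 fold change stayed between -1.15 and -0.92 whichever library or tumor was left out.

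Bc1 was lower in CD34- in each tumor. It is a short RNA made by RNA polymerase III, known from dendrites of neurons, where it represses translation, and is the source of the rodent ID repeats. It measured 3.94, 9.79 and 7.42 CPM in CD34- and 10.8, 24.5 and 19.7 CPM in CD34+, so the groups did not overlap while the level of both fractions moved with the tumor. The log2 ratios were nearly equal in the tumors, at -1.37, -1.35 and -1.39. The log2 fold change with the block was -1.37 ± 0.24 (SE; adjusted p = 0.00868, limma-voom), and the adjusted p was 0.143 without it. The GENCODE transcript (chr7:144914470-144914637, plus strand, GRCm38) is 168 bases long. It is shown for its internal A-rich stretch, in capitals (bases 77 to 136, 81.7% A).
Bc1: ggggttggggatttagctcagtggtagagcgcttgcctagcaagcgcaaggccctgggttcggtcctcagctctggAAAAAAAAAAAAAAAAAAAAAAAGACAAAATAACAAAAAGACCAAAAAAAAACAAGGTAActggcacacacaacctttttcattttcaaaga
Part of Bc1 had near-identical stretches in 6 other genes, with 103 bases matched in Elp6, so its counts are uncertain. The coding gene nearest to it, LTO1, did not pass the test (log2 fold change with the block 0.45 ± 0.31, adjusted p = 0.438).

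Gm19579 and Gm10736 were the other genes lower in CD34-. Gm19579, on chromosome 4 without a position in the annotations used, measured 14.1, 18.5 and 10.0 CPM in CD34- and 25.9, 31.8 and 16.2 CPM in CD34+. The groups overlapped, since CD34- of tumor 2 exceeded CD34+ of tumor 3, but each tumor had the lower value in CD34-. The log2 fold change with the block was -0.78 ± 0.19 (SE; adjusted p = 0.0351, limma-voom), and the adjusted p was 0.339 without it. Of the 23 fits, 3 called Gm19579, and its log2 fold change ran from -1.09 to -0.44 as single libraries or tumors were left out. Gm10736, whose GENCODE sequence is identical to part of Rpl41, measured 97.9, 93.0 and 90.9 CPM in CD34- and 143, 162 and 138 CPM in CD34+, with no overlap. Its log2 fold change was -0.64 ± 0.13 (adjusted p = 0.0186), beside -0.51 ± 0.14 (adjusted p = 0.0587) for Rpl41 itself.

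Among the genes higher in CD34-, 4833422C13Rik and Dio3os had the widest differences. With the block, the log2 fold change was larger for 4833422C13Rik in limma-voom (1.68 and 1.49) and larger for Dio3os in edgeR (1.63 and 1.94). The antisense RNA 4833422C13Rik (chr13:91701665-91741872, minus strand, GRCm38) measured 13.7, 16.2 and 22.9 CPM in CD34- and 9.73, 4.98 and 3.64 CPM in CD34+. The log2 ratio was 0.57 in tumor 1, 1.67 in tumor 2 and 2.67 in tumor 3. The log2 fold change was 1.68 ± 0.35 (SE; adjusted p = 0.0196, limma-voom) with the block and 1.74 ± 0.35 (adjusted p = 0.0858) without. It shares 32.4% of its exon bases with Ssbp2 and Acot12 on the opposite strand. Neither partner passed the test: Ssbp2, which encodes a single-stranded DNA binding protein, had a log2 fold change of -0.15 ± 0.16 (adjusted p = 0.647) and Acot12, an acyl-CoA thioesterase gene, of 0.12 ± 0.79 (adjusted p = 0.949), both with the block.

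Peg13 was higher in CD34- in each tumor. It is an imprinted noncoding RNA read from the paternal chromosome inside an intron of Trappc9 (chr15:72805600-72810324, minus strand, GRCm38). It measured 34.5, 41.8 and 48.9 CPM in CD34- and 26.9, 25.1 and 22.9 CPM in CD34+, with no overlap. The log2 fold change with the block was 0.77 ± 0.18 (SE; adjusted p = 0.029, limma-voom). Its host Trappc9, which encodes a subunit of a vesicle trafficking complex, measured 22.3 to 25.01 CPM in CD34- and 16.9 to 22.6 CPM in CD34+ and did not pass the test (0.21 ± 0.19, adjusted p = 0.591).

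Norad and Dio3os completed the genes higher in CD34-. Norad, a conserved cytoplasmic RNA that binds Pumilio proteins and whose loss leads to chromosome instability (chr2:156388063-156392979, GRCm38.p6), measured 328, 323 and 340 CPM in CD34- and 258, 234 and 239 CPM in CD34+. The groups did not overlap, and the difference was small and even: the log2 ratios were 0.43, 0.44 and 0.53 and the log2 fold change with the block 0.47 ± 0.12 (SE; adjusted p = 0.0437, limma-voom). The call rested on few fits, since 2 of 23 made it. Dio3os measured 4.0, 14.1 and 6.57 CPM in CD34- and 1.42, 5.57 and 0.809 CPM in CD34+. The groups overlapped because both fractions of tumor 2 were high, while each tumor had the higher value in CD34-. Its log2 fold change with the block was 1.49 ± 0.37 (adjusted p = 0.0394), and 3 of 23 fits called it. The log2 fold change ran from 0.66 without CD34+ of tumor 3 to 2.80 without CD34+ of tumor 2. With a mean of 8.21 CPM in CD34- and 2.60 CPM in CD34+, Dio3os reached the level limit only through CD34-, the group where it is high. The other 7 called genes had a mean above 5 CPM in both groups.

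**Figure D3:**
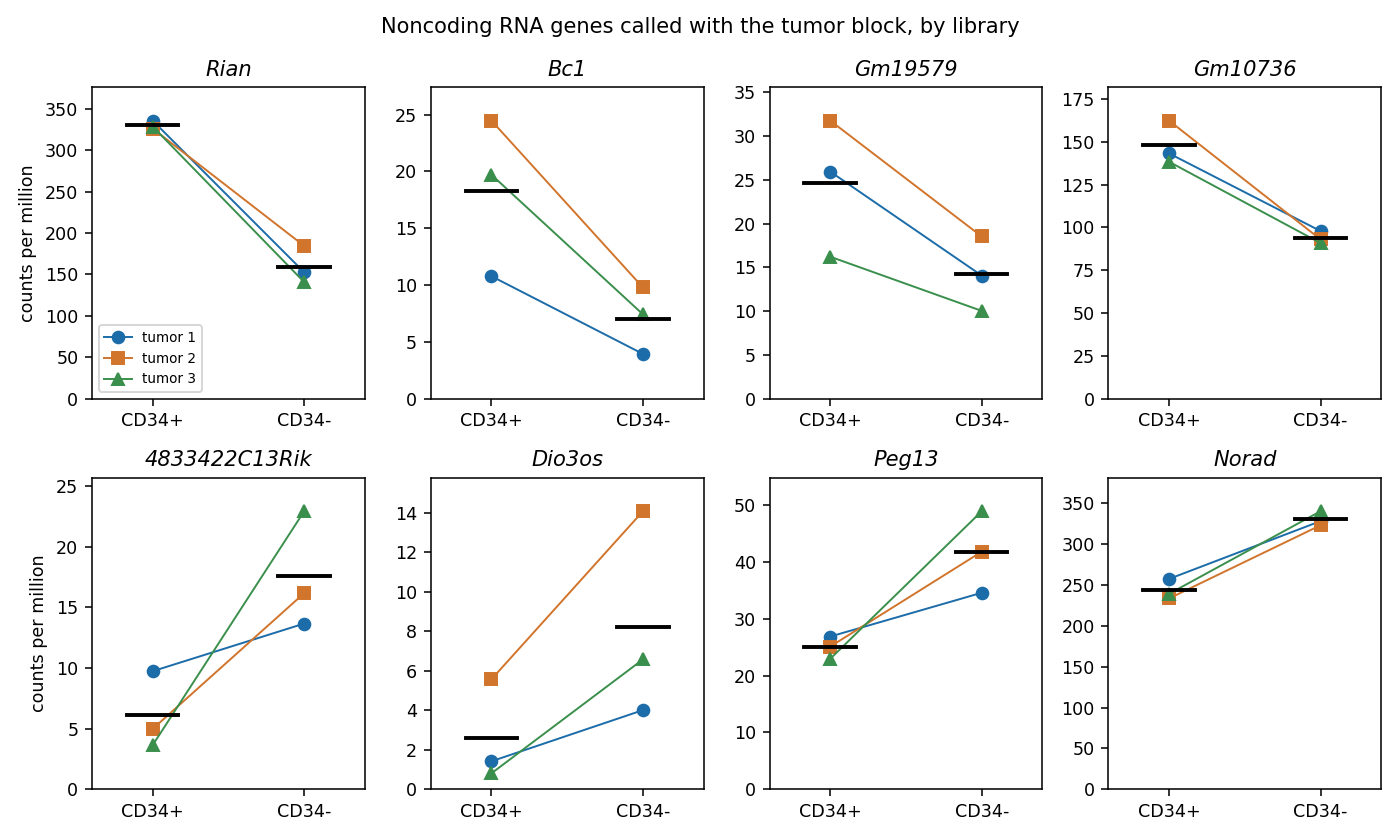
Level in CPM (y axis, from 0) in the CD34+ and CD34- library of each tumor for the 8 noncoding RNA genes called with the tumor block; lines join the libraries of a tumor and black bars are group means (n = 3). Every line falls from CD34+ to CD34- for Rian, Bc1, Gm19579 and Gm10736 and rises for 4833422C13Rik, Dio3os, Peg13 and Norad.

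The Dlk1-Dio3 domain on chromosome 12 held 4 of the 79 genes. The maternal chromosome expresses Meg3, Rian and Mirg in the same direction of transcription, and the paternal one expresses the coding genes Dlk1, Rtl1 and Dio3. Dio3os is read in the opposite direction from Dio3, from a start 896 bases away. Meg3 was lower in CD34- in each tumor, though without passing the test. It measured 260, 205 and 209 CPM in CD34- and 388, 213 and 379 CPM in CD34+. Its log2 fold change with the block was -0.47 ± 0.16 (SE; adjusted p = 0.102, limma-voom). A stretch of 842 bases had a near-identical copy (99.9%) in the lincRNA Gm27000. Mirg, a host of microRNAs, measured 4.09, 3.50 and 3.43 CPM in CD34- and 10.2, 5.81 and 6.40 CPM in CD34+. These groups did not overlap, and the log2 fold change with the block was -0.95 ± 0.35 (adjusted p = 0.135). The ratio of Rian to Meg3 counts was 0.587, 0.898 and 0.675 in the CD34- libraries of tumors 1, 2 and 3 and 0.864, 1.53 and 0.868 in the CD34+ libraries, lower in CD34- within each tumor.

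The coding genes of the domain differed in direction. Dlk1, a ligand-like protein of preadipocytes that was picked after its values had been seen, measured 6.03, 0.691 and 0.170 CPM in CD34- and 66.0, 10.4 and 1.40 CPM in CD34+. Both fractions varied with the tumor, and CD34- was lower in each, with a log2 fold change of -3.43 ± 0.34 with the block (SE; adjusted p = 0.000804, limma-voom) and -2.83 ± 2.04 (adjusted p = 0.565) without. Rtl1, a retrotransposon-derived gene that starts within 5 kb of Rian, was near the detection limit at 0 to 2.96 CPM and did not pass the test (-0.74 ± 0.91, adjusted p = 0.695). Dio3, the gene of the enzyme that inactivates thyroid hormone, measured 9.63, 52.6 and 11.4 CPM in CD34- and 12.9, 25.3 and 7.46 CPM in CD34+. It was lower in CD34- in tumor 1 and higher in tumors 2 and 3 (0.76 ± 0.25, adjusted p = 0.0976 with the block), where Dio3os was higher in all 3.

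**Figure D4:**
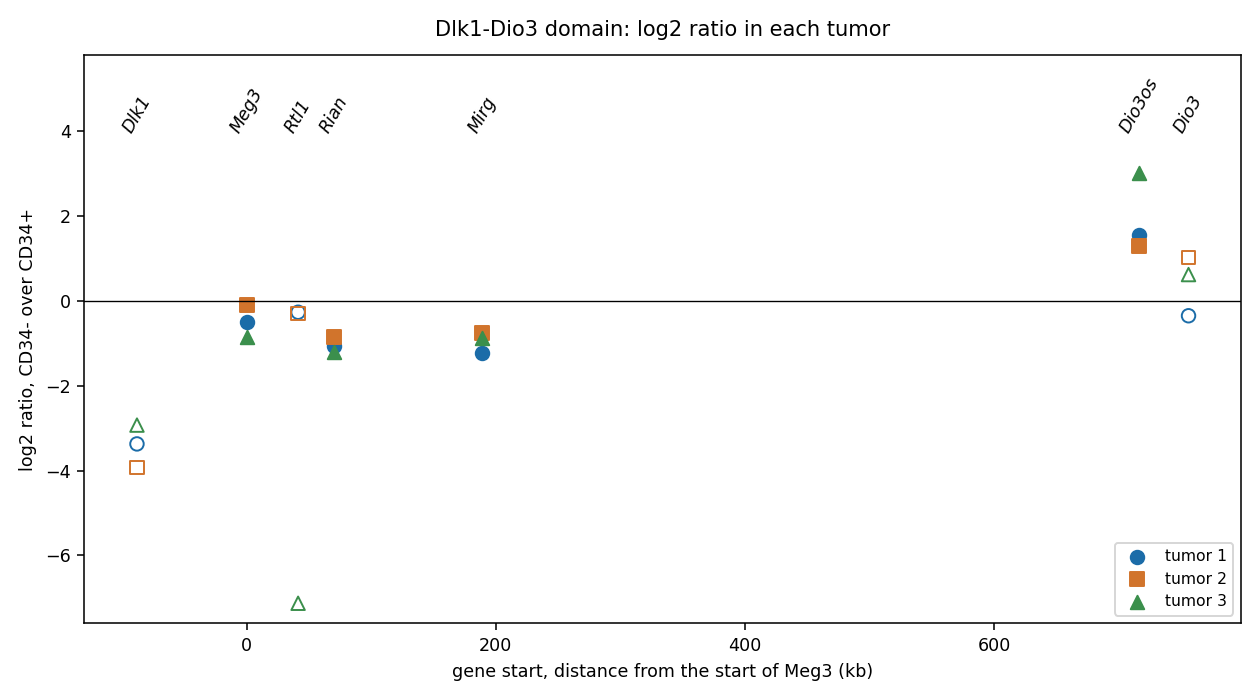
Log2 ratio of CD34- over CD34+ (y axis) in each tumor for 7 genes of the Dlk1-Dio3 domain, by distance from Meg3 in kb (x axis). The distance is between the lowest coordinates of the genes, which for Rtl1 and Dio3os, on the minus strand, is where the transcript ends. Rtl1, Rian, Dio3os and Dio3 are moved sideways by up to 18 kb so that points do not hide each other. Filled points are noncoding RNA genes and open points coding genes; Meg3, Rian and Mirg lie below 0 and Dio3os above 0 in all 3 tumors, and the low Rtl1 value of tumor 3 comes from a library with no Rtl1 count.

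These transcripts span microRNA genes, whose sequences show what the precursors carry. RefSeq placed 50 mature microRNAs on the sense strand within 11 of the 79 genes: 26 in Mirg, 6 in Rian, 4 in Dnm3os, 3 in Meg3 and 1 or 2 in each of the others. Those of the genes called in the domain, Rian and Dio3os, are given with those of Meg3; the capitals mark the seed, bases 2 to 8, with which a microRNA pairs to its targets. Mature microRNAs are too short for such libraries and were not measured.
Rian, mmu-miR-341-5p: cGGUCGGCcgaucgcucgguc
Rian, mmu-miR-341-3p: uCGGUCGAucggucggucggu
Rian, mmu-miR-1188-5p: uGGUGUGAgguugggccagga
Rian, mmu-miR-1188-3p: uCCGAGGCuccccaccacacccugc
Rian, mmu-miR-370-5p: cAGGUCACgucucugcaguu
Rian, mmu-miR-370-3p: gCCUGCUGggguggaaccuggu
Meg3, mmu-miR-1906: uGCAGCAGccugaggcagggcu
Meg3, mmu-miR-770-5p: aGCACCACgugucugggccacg
Meg3, mmu-miR-770-3p: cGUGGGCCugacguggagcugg
Dio3os, mmu-miR-1247-5p: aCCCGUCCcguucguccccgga
Dio3os, mmu-miR-1247-3p: cGGGAACGucgagacuggagc
The 50 microRNAs have 49 seeds. The pair that shares a seed lies in Mirg and is shown for that reason.
Mirg, mmu-miR-453: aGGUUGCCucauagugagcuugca
Mirg, mmu-miR-496a-5p: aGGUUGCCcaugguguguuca

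The other imprinted noncoding RNAs did not pass the test. Of 12 listed, 6 were among the 79: H19, Meg3, Rian, Mirg, Airn and Peg13. With the block, 1 of the 6 was higher (Peg13) and 1 lower (Rian), and their median log2 fold change without the block was -0.16. H19, a maternally expressed RNA next to Igf2 and host of a microRNA, measured 117, 88.5 and 152 CPM in CD34- and 197, 119 and 51.4 CPM in CD34+. It was lower in CD34- in tumors 1 and 2 (log2 ratio -0.67 and -0.46) and higher in tumor 3 (1.58), and its fold change turned from 0.19 to -0.62 without tumor 3. Airn, the antisense RNA that silences Igf2r on the paternal chromosome, measured 6.23, 4.88 and 4.56 CPM in CD34- and 9.48, 3.96 and 4.74 CPM in CD34+ (log2 fold change 0.20 ± 0.38, SE, without the block, and -0.07 ± 0.35 with it).

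Of the RNAs listed as nuclear or broadly expressed, Norad, described above as cytoplasmic, alone passed the test, with the block. Of 10 listed, 7 were among the 79, and 6 of the 7 had a log2 fold change above 0 without the block, with a median of 0.46. Over the 9 listed genes that were tested, 6 were above 0 with a median of 0.26. Miat (-2.52, adjusted p = 0.0508 with the block) and Kcnq1ot1 (-1.59), both under the level limit, were below 0. Tug1 was also below 0 (-0.18 ± 0.18, SE) and measured 58.4 to 67.1 CPM in CD34- and 62.2 to 82.1 CPM in CD34+. Pvt1, next to Myc, was close to 0 (0.05 ± 0.25), and its sign turned with sample quality weights (-0.04). Malat1, an abundant RNA of nuclear speckles, measured 276, 266 and 357 CPM in CD34- and 286, 167 and 181 CPM in CD34+. The groups overlapped through CD34+ of tumor 1, and the log2 fold change with the block was 0.56 ± 0.18 (adjusted p = 0.0900, limma-voom). Neat1, the RNA of paraspeckles, measured 97.0, 75.0 and 77.6 CPM in CD34- and 71.8, 39.5 and 80.2 CPM in CD34+ (0.48 ± 0.18, adjusted p = 0.153). Firre, an X-linked RNA of nuclear organization, ranged from 28.6 to 42.6 CPM in CD34- and from 13.6 to 42.2 CPM in CD34+ (0.48 ± 0.24, adjusted p = 0.273). Oip5os1, also called Cyrano, ranged from 20.4 to 33.8 CPM and from 19.6 to 26.1 CPM (0.30 ± 0.18, adjusted p = 0.360).

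Xist had the highest CPM of the 79 genes in each library except CD34+ of tumor 2, where Gm17494 was higher at 481 CPM. It measured 469, 400 and 539 CPM in CD34- and 710, 417 and 723 CPM in CD34+, lower in CD34- in each tumor with overlapping groups (log2 fold change with the block -0.34 ± 0.13, SE; adjusted p = 0.163, limma-voom). Its antisense partner Tsix, which shares part of its exon bases, was at a mean of 0.0579 CPM. Of 5 listed X inactivation RNAs, Xist and Firre were among the 79, and Ftx was just under the level limit.

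None of the hosts of small nucleolar RNAs passed the test. These genes carry snoRNAs, which guide the modification of ribosomal RNA, in their introns, and many of their spliced RNAs are short-lived. Of 21 listed, 12 were among the 79, with 5 fold changes above and 7 below 0 without the block and a median of -0.17. Gas5, the most abundant of them, measured 117, 129 and 206 CPM in CD34- and 210, 157 and 200 CPM in CD34+ (log2 fold change with the block -0.33 ± 0.16, SE; adjusted p = 0.267, limma-voom). Snhg6 measured 8.06, 9.58 and 10.4 CPM in CD34- and 16.3, 15.6 and 13.2 CPM in CD34+, and Snhg12 11.5, 12.3 and 5.83 CPM against 20.8, 14.9 and 14.6 CPM. In both, the groups did not overlap and each tumor had the lower value in CD34- (-0.67 ± 0.24, adjusted p = 0.129, and -0.67 ± 0.26, adjusted p = 0.153). Snhg15 went the other way without overlap, at 13.8, 13.4 and 30.5 CPM in CD34- and 7.76, 10.5 and 8.45 CPM in CD34+ (0.93 ± 0.32, adjusted p = 0.117). Snhg16 was the steadiest of the 79 genes, with 5.44 to 6.69 CPM over the 6 libraries. Snhg1, Snhg5, Snhg8, Snhg17, Snhg18, Zfas1 and Epb41l4aos had log2 fold changes between -0.28 and 0.39 with the block. In Snhg1, Gas5, Snhg17 and Zfas1 the ratio was below 0 in tumors 1 and 2 and above 0 in tumor 3, whose CD34- library is the one with fewer genes detected.

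**Figure D5:**
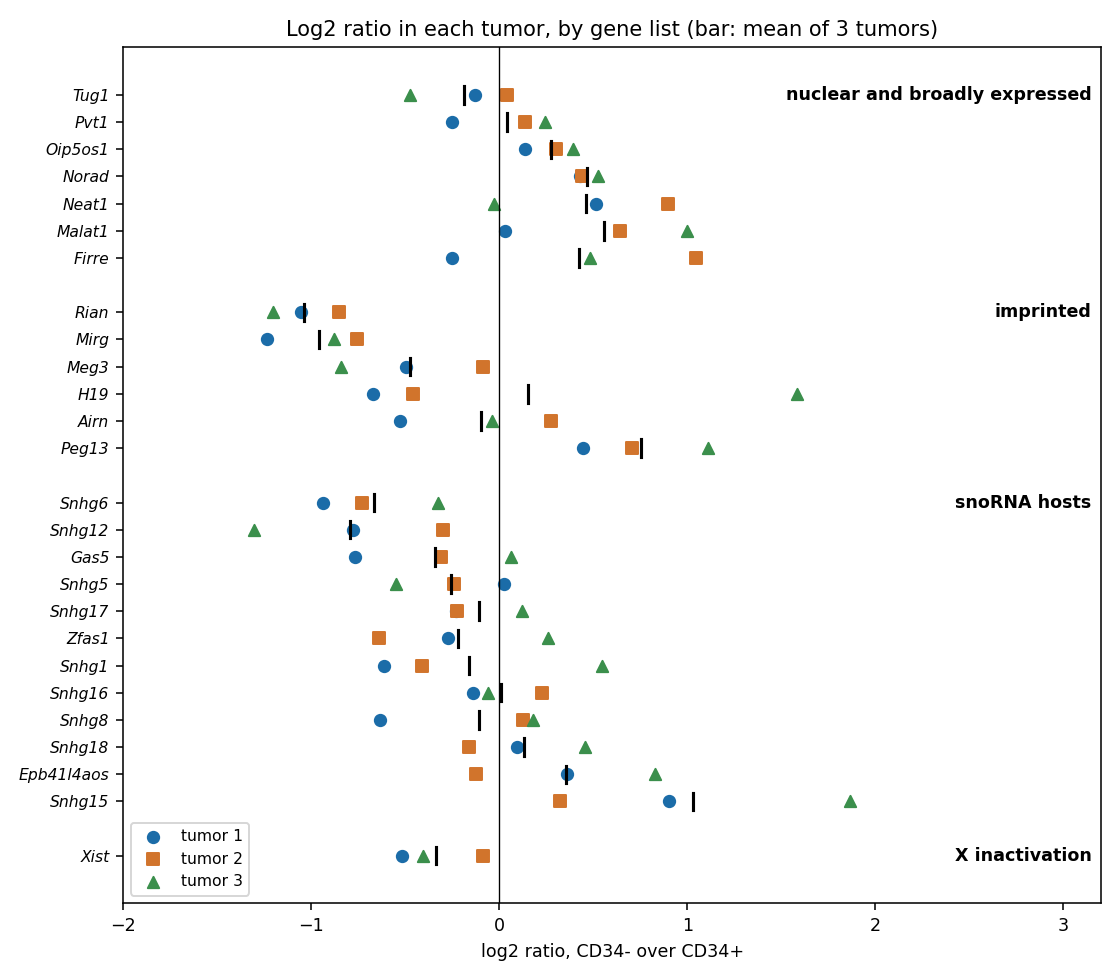
Log2 ratio of CD34- over CD34+ (x axis) in each tumor for the noncoding RNA genes of 4 lists (y axis); vertical bars are means over the 3 tumors. The 12 snoRNA hosts lie on both sides of 0, from Snhg6 and Snhg12 below 0 to Snhg15 above 0, and Rian, Mirg and Meg3 lie below 0 in all 3 tumors.

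Of 24 listed microRNA hosts, 6 were among the 79, and Rian was the only one of the 6 to pass, with the block. Dio3os, which spans miR-1247 and also passed with the block, is not on this list. Dnm3os, which lies opposite Dnm3 and carries miR-199a and miR-214, microRNAs known from fibroblasts, measured 83.1, 90.2 and 64.4 CPM in CD34- and 129, 59.8 and 95.5 CPM in CD34+. It was lower in CD34- in tumors 1 and 3 (log2 ratio -0.55 in both) and higher in tumor 2 (0.56), with a log2 fold change of -0.15 ± 0.22 (SE) with the block. Mir22hg, the host of miR-22, varied little, between 24.1 and 32.5 CPM over all libraries (0.23 ± 0.18). The mature forms of Dnm3os and Mir22hg are given with their seeds in capitals.
Dnm3os, mmu-miR-199a-5p: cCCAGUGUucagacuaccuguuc
Dnm3os, mmu-miR-199a-3p: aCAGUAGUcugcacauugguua
Dnm3os, mmu-miR-214-5p: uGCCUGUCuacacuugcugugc
Dnm3os, mmu-miR-214-3p: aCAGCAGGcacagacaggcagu
Mir22hg, mmu-miR-22-5p: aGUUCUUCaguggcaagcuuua
Mir22hg, mmu-miR-22-3p: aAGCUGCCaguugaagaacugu

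Of 11 RNAs linked to p53 and senescence, 7 were among the 79 (Pvt1, Gas5, Neat1, Meg3, Tug1, Mir22hg and Norad, all described above), with 1 called higher with the block (Norad) and a median log2 fold change of 0.05 without it. Trp53cor1, also called lincRNA-p21, was at 0.589 CPM. Of 24 Hox and developmental antisense RNAs, Dnm3os alone reached the limit, and Hotair was at 0.805 CPM. None of 10 RNA polymerase III and RNP RNAs and none of 8 inflammation-linked RNAs was among the 79. Rn7sk, an RNA that holds back transcription elongation, had a mean of 8.90 CPM but is classed as snRNA in the gene table. Bc1 was not on these lists.

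Further genes came near the test's threshold or were apart between the groups without passing in limma-voom over all 6 libraries. They were picked after their values had been seen. The CPM of the groups did not overlap in 17 of the 79 genes (8 higher and 9 lower in CD34-), or 21.5%, beside 20.2% of all genes tested and 22.6% of genes at or above the level limit. Abhd11os, a pseudogene that overlaps Abhd11, measured 8.86, 10.9 and 8.78 CPM in CD34- and 3.57, 5.42 and 4.04 CPM in CD34+ (log2 fold change with the block 1.08 ± 0.30, SE; adjusted p = 0.0613, limma-voom). AW112010, an RNA known from immune cells, measured 3.33, 8.34 and 1.30 CPM in CD34- and 9.24, 10.7 and 16.7 CPM in CD34+ (-1.26 ± 0.51, adjusted p = 0.171). Mexis, an RNA whose nearest coding gene is the cholesterol transporter gene Abca1, was even in CD34- at 2.87, 3.01 and 3.23 CPM and uneven in CD34+ at 2.65, 12.3 and 9.23 CPM (-1.54 ± 0.43, adjusted p = 0.0595). Its groups overlapped, since CD34+ of tumor 1 lay below every CD34- value. DESeq2 called Abhd11os in both designs and AW112010 with the block. In limma-voom with the block, AW112010 was called without tumor 2, and Abhd11os and Mexis without tumor 3.

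The levels of many genes were apart by tumor. Both libraries of a tumor lay above or below the other 4 libraries in 36 of the 79 genes, or 45.6%, beside 44.5% of all genes tested; tumor 1 was apart in 14 genes, tumor 2 in 15 and tumor 3 in 13. Gm20186 measured 39.9 and 42.6 CPM in the fractions of tumor 3 and 97.3 to 137 CPM in the other libraries. Gm19316 measured 1.47 and 0.588 CPM in tumor 3 and 6.93 to 7.29 CPM elsewhere. The pseudogene 1700086L19Rik measured 46.6 and 68.7 CPM in tumor 1, 3.50 and 7.66 CPM in tumor 2 and 2.29 and 22.7 CPM in tumor 3, higher in CD34+ each time. The gene with the widest range over libraries was Gm16973, which measured 0.170 CPM (6 counts) in CD34- of tumor 3 and 5.24 to 9.52 CPM in the others. Mir568, whose row lies wholly in an exon of Zbtb20, measured 13.9 CPM in CD34+ of tumor 1 and 1.91 to 7.0 CPM elsewhere, while Zbtb20 itself ranged from 11.4 to 22.8 CPM and was also highest in that library.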

How the data were processed

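Libraries were prepared by the authors from total RNA of sorted, snap-frozen cells with a TruSeq RNA v2 protocol, which does not keep strand; the labels name poly(A) RNA. The authors aligned the reads to GRCm38/mm10 and deposited raw counts per gene, made with featureCounts of Rsubread; strand and multiple matches were not stated. From these counts, genes were kept by filterByExpr (minimum count 10) and TMM-scaled in edgeR 4.0.16, and tested with voom in limma 3.58.1 (R 4.3.3) with Benjamini-Hochberg adjustment over 14855 genes, without a tumor term and with the tumor as a block; the study's methods name voom and do not state the model terms. DESeq2 1.42.0, edgeR's quasi-likelihood test, other filters, member limits and left-out libraries were alternatives. The labels pair the libraries by tumor, and deviations from the group means correlated at 0.373, 0.35 and 0.219 within tumors 1, 2 and 3. Nothing says how many mice bore the tumors, so p-values rest on the spread between these 3 tumors. Without the block this is the spread of libraries within each group. With the block it is the spread of the difference between the fractions from tumor to tumor. CPM and shares use library totals; ratios per tumor are differences of voom log2 CPM. Copies were sought with blastn 2.17.0 among GENCODE vM21 transcripts, and microRNA sequences are from RefSeq (GRCm38.p6). The limma-voom fits of both designs were run on simulated counts with changes in well-counted genes only, and the outcome is not given here. Members, lists and the naming rule (genes called in either design, the 10 highest per kb, listed genes, those beside the limit, and coding genes within 5 kb (5000 bases) of called genes) were chosen with earlier results of these data known. Genes named outside the rule are marked as such or belong to a count. Sequence on chromosome 18 is not shown.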

Additional observations from a re-analysis of the deposited data

How the results depend on the processing

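Without the tumor block, the count of noncoding RNA genes called was 0 and stayed 0 with DESeq2 size factors, without the low-count filter, with edgeR, with member limits of 10 or 2 CPM, without genes that share exon bases (or also have a copy) and without any single library or tumor; it was 8 with the block, 1 with sample quality weights, 6 with DESeq2 and 2 at an adjusted p of 0.1. With the block it was 8, and it was 2 with edgeR, 5 with the tumor as a random effect and 3 without the low-count filter. It was 3 without tumor 2, 18 without tumor 3, and 5 without genes that share exon bases or have a copy. Norad and Gm19579, among these 5, had no match in GENCODE and were not checked for either. The count was 3 when a GENCODE match was also required. DESeq2 with the block gave 11. Calls among all genes tested moved as well (not given here for an adjusted p of 0.1). Without the block they were 18, with 161 for sample quality weights and 674 for DESeq2. With the block they were 1273, with 575 for edgeR and 1730 for DESeq2. The tumor as a random effect gave 703. The median log2 fold change moved from 0.11 to -0.0594 with a member limit of 10 CPM. The 8 genes called with the block kept their sign in all 23 fits. Signs turned for H19 with edgeR (-0.0298) and DESeq2 (-0.0428), for Gm20186 with quality weights (0.46), for Snhg8 with the block (-0.0905), quality weights (-0.0551), edgeR (-0.17) and DESeq2 (-0.19), for Pvt1 (-0.0433) and Epb41l4aos (-0.0219) with quality weights, for Mir568 with edgeR (-0.22) and DESeq2 (-0.24), and for Airn with the block (-0.0708), edgeR (-0.18) and DESeq2 (-0.19). Leaving out a library or a tumor gave log2 fold changes from -0.30 to 0.0138 for Gm17494, -0.62 to 0.57 for H19, -0.59 to 0.46 for Gm20186, -0.55 to 0.11 for Dnm3os, -0.14 to 0.35 for Snhg18, -0.49 to 0.0535 for Snhg1, -0.00085 to 0.96 for Firre, -0.42 to 0.0810 for Zfas1, -0.24 to 0.26 for Snhg8, -0.0833 to 0.23 for Pvt1, -0.0553 to 0.13 for Snhg16 and -0.17 to 0.37 for Airn. The cause was not tested. Leaving out both libraries of a tumor without the block, and leaving out genes with a copy, were chosen after seeing the data. Each of the 79 genes had at least 6 counts in each library; whether depth or the number of tumors limited the calls was not tested.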
